A study of Homo sapiens with 6 samples.

Results

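The F-box genes of human 786-O cells were examined after a knockdown of PLEKHO1, together with SKP1 and SKP2. The set was chosen by gene name: it held the genes in the table used here whose platform symbol starts with FBXO, FBXL or FBXW and a number, SKP1 and SKP2, among probe sets with a single gene symbol. It came to 65 genes, measured by 154 probe sets, of 18132 genes tested and 49395 probe sets on the array. Of the 65, 61 code for protein, and the other 4 are the pseudogenes FBXL9P, FBXL21P and FBXW4P1 and FBXW7-AS1, a long noncoding RNA antisense to FBXW7. 786-O is an established line from a human clear cell renal cell carcinoma. Cells received a lentivirus with a short hairpin RNA (shRNA) against PLEKHO1 (3 arrays, shPLEKHO1) or were the control that the labels call shNC (3 arrays), and both groups were grown alike in medium with serum. The labels do not describe the control's construct, and they do not give the shRNA sequences or their number. Each gene was read as the intensity of its brightest probe set. Nothing in the labels says whether the replicates were separate cultures, so the p-values rest on the variation among 6 arrays, part or all of which may be technical.

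An SCF ubiquitin ligase is built on a cullin scaffold, CUL1, that holds a RING protein and the charged ubiquitin-conjugating enzyme at one end and the adaptor SKP1 at the other. SKP1 binds the F-box of an interchangeable receptor, and the receptor brings the substrate: FBXW proteins carry WD40 repeats, FBXL proteins leucine-rich repeats, and FBXO proteins other domains or none that is known. Attachment of the ubiquitin-like protein NEDD8 switches the cullin on, the COP9 signalosome takes NEDD8 off, and CAND1 exchanges receptors. SCF ligases are known for setting the levels of cyclins, CDK inhibitors, beta-catenin and the inhibitor of NF-kB. They act on proteins, which the arrays did not measure.

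PLEKHO1 itself read 110.3, 116 and 97.4 on the shPLEKHO1 arrays, against 135, 143 and 126 on the shNC arrays. The groups did not overlap, and PLEKHO1 fell by 0.32 ± 0.08 on the log2 scale (SE, n = 3 arrays per group, limma adjusted p = 0.0123; exact two-sided permutation test, p = 0.1, the smallest that 3 against 3 arrays allow). The fall was modest, a 1.25-fold lower mean. Median intensity lay between 55.7 and 57.1 over the 6 arrays. The renal transcription factor PAX8 averaged 354 ± 6.11 with shPLEKHO1 and 424 ± 42.4 with shNC (SD, n = 3 each), and vimentin (VIM) and the ligand CD70, both typical of this line, averaged 15448 and 3021 with shPLEKHO1 and 14741 and 3032 with shNC, while the proximal tubule receptors LRP2 and CUBN read between 17.4 and 32.6 in group means. Of 10 markers of kidney or of this line, 3 rose and 3 fell, 30% each, against 18.1% and 16% of all genes. KRT8 (log2 difference 0.32), KRT18 (0.52) and EPAS1 (0.54) rose, and PAX8 (-0.25), PAX2 (-0.33) and VCAM1 (-0.75) fell. Of 7 markers of blood, stromal, endothelial and liver cells, 0 changed in limma, against 34.1% of all genes. Among these 7, 1 had an unadjusted p under 0.05 (CD68, log2 difference 0.19). PTPRC, the defining marker of blood cells, averaged 6.82 ± 0.244 with shPLEKHO1 and 6.39 ± 0.484 with shNC (SD, n = 3 each), below the array's background probe set. Most of the others read above that probe set in both groups. CD68 averaged 146 with shPLEKHO1 and 128 with shNC, COL1A1 66.2 and 71.8, and PECAM1 49.3 and 49.7. CD3E (22.2 and 19.9) and CDH5 (16.9 and 15.5) were dimmer, and ALB (13.7 and 13.4) lay within the background range. Each log2 difference, given ± SE, is the shPLEKHO1 mean less the shNC mean of log2(intensity + 1) after quantile normalization. A gene is said to have risen, fallen or changed where its limma p, adjusted over all 18132 genes, was under 0.05. In bulk RNA, fewer cells with a transcript and less transcript per cell cannot be told apart.

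Transcripts of F-box receptors moved in both directions, with more falls than rises, and with the largest changes among the falls. Of the 65 genes, 31 changed (47.7%), against 34.1% of all genes tested. Falls made up 19 of them, 29.2% of the set against 16% of all genes, and rises 12, 18.5% of the set against 18.1% of all genes. The share that rose was close to that of all genes, and the share that fell was above it. The gap in the share changed was smaller with the lowest 30% of genes by intensity left out. There 29 of 53 F-box genes changed (54.7%), against 6343 of the 12692 genes kept (50%). Of these F-box genes 34.0% fell and 20.8% rose, against 23.1% and 26.9% of all genes kept. The share that fell thus stayed above that of all genes kept, and the share that rose was below it. These shares are descriptions of a set chosen by name, with no test of the set. The median log2 difference was -0.04 in the set and 0.01 over all genes. All 31 changed genes coded for protein, and their groups did not overlap; groups did not overlap in 33 of the 65 genes, against 45.0% of all genes. Of the 31, 24 were under 1.5-fold (77.4%), as were 78.7% of all changed genes. At least 2-fold changes were seen in FBXO21, FBXO28 and FBXO27, all falls, which is 3 of 65 genes beside 1.77% of all genes.

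**Figure D1:**
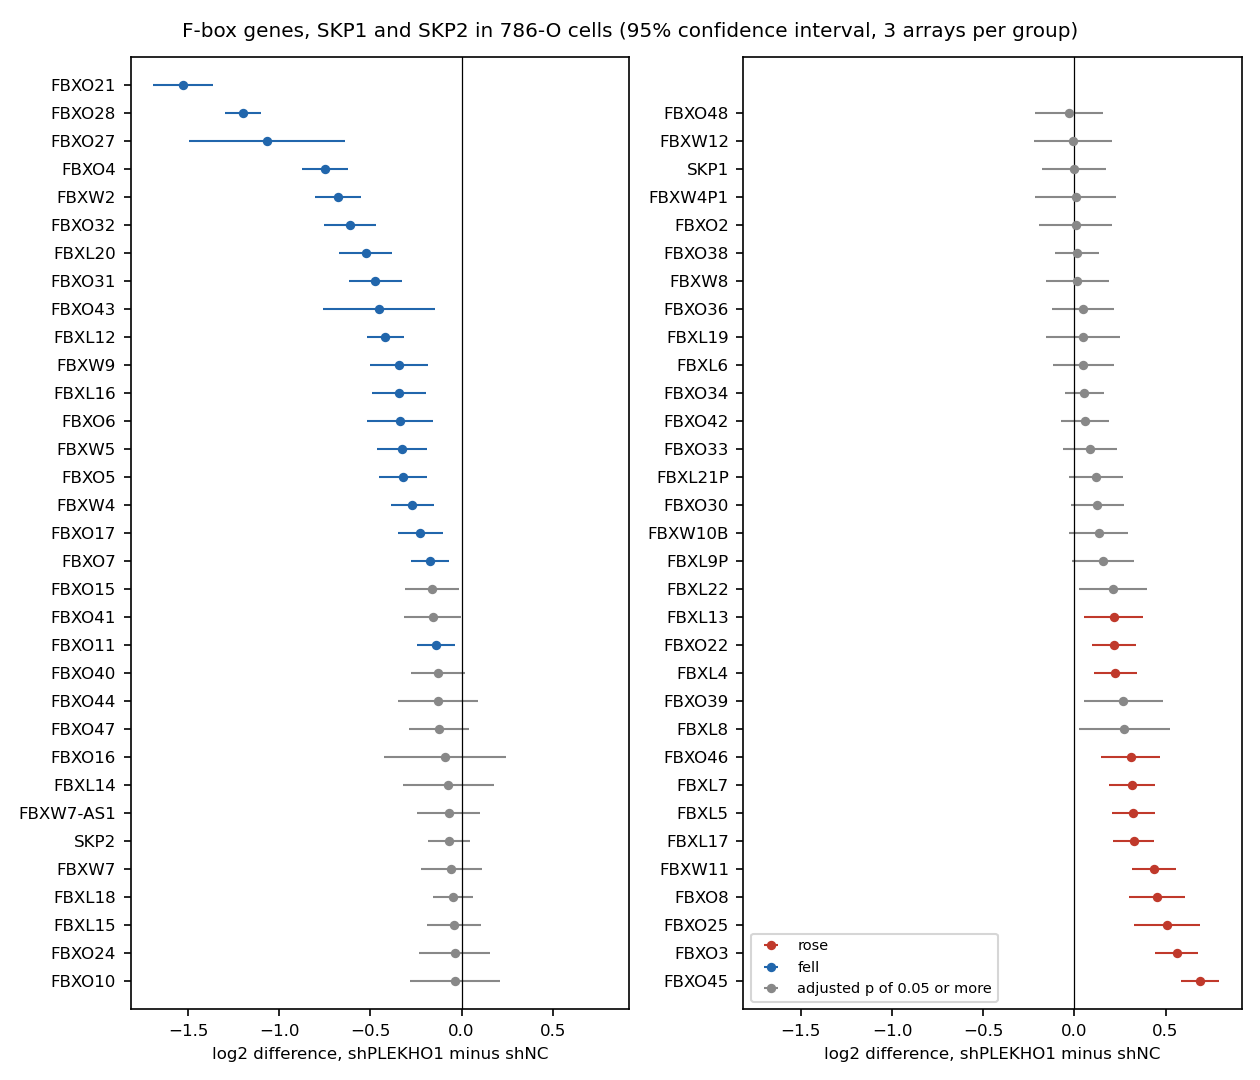
Log2 difference (x axis, shPLEKHO1 minus shNC) of all 65 genes (y axis), sorted from the largest fall, FBXO21 at -1.53, to the largest rise, FBXO45 at 0.69. Points are estimates and bars 95% confidence intervals from limma with 3 arrays per group; 19 genes fell, 12 rose and 34 did not pass.

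The adaptor SKP1, which links receptors to CUL1, read 1549.7, 1374 and 1504 on the shPLEKHO1 arrays, against 1617, 1463 and 1339 on the shNC arrays. The groups overlapped, with a log2 difference of -0.00 and a 95% confidence interval of -0.18 to 0.17. SKP2, the receptor that targets the CDK inhibitor CDKN1B, read 260.1, 264 and 260.2 on the shPLEKHO1 arrays, against 286, 259.6 and 288 on the shNC arrays, and these overlapped as well (-0.07 ± 0.05, adjusted p = 0.360, 95% confidence interval -0.19 to 0.05). The dimmer of the 2 SKP2 probe sets fell (-0.23, adjusted p = 0.0234 over all probe sets), and the mean of both passed too (-0.15, adjusted p = 0.0172). The intervals of both brightest probe sets hold 0.

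FBXO21, a receptor for the transcriptional inhibitor EID1, fell most. It read 124, 128 and 134 on the shPLEKHO1 arrays, against 353, 371 and 399 on the shNC arrays. All 3 shPLEKHO1 values lay far below the lowest shNC value, and the transcript was 2.88-fold lower (-1.53 ± 0.07, adjusted p = 4.50e-06). Each of its 4 probe sets fell, between -1.72 and -1.42. FBXO28, which ubiquitylates the transcription factor MYC, was 2.29-fold lower (-1.20 ± 0.04, adjusted p = 1.65e-06), with 202, 209 and 204 on the shPLEKHO1 arrays, against 488, 459.9 and 476 on the shNC arrays. Its arrays were tight within each group and far apart between groups, and its 4 probe sets all fell, between -1.20 and -0.57, with a mean of -0.79. Among the rises, FBXO45 was largest, at 1.61-fold higher (0.69 ± 0.05, adjusted p = 2.21e-05). FBXO45 is an atypical receptor that works with the ligase MYCBP2 rather than CUL1. It read 914, 991 and 918 on the shPLEKHO1 arrays, against 599, 562 and 579 on the shNC arrays, and its 3 probe sets all rose. FBXO8, which carries a Sec7 domain and acts on the small GTPase ARF6, rose by 0.45 ± 0.07 (adjusted p = 0.00120) on its only probe set, with 199, 182 and 192 on the shPLEKHO1 arrays, against 132, 145 and 144 on the shNC arrays. The groups were again separate.

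The 250 bases before the start of these 4 genes are given from the RefSeq promoter table of GRCh38.p14, 5′ to 3′ on the gene's strand. Each gene had a single entry. FBXO21 and FBXO28 fell most and FBXO45 rose most, but FBXO8 was not the next largest rise. FBXO3 (0.56) and FBXO25 (0.51) rose by more than FBXO8 and are not printed. Capitals mark the ETS core CCGGAAG or its reverse complement.
FBXO21 (chr12:117190471-117190720, minus strand): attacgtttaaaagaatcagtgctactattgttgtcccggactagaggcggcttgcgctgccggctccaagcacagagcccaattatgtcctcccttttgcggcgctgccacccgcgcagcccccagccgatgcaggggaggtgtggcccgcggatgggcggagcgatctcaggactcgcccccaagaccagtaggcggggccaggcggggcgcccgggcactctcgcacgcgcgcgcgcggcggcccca
FBXO28 (chr1:224113861-224114110, plus strand): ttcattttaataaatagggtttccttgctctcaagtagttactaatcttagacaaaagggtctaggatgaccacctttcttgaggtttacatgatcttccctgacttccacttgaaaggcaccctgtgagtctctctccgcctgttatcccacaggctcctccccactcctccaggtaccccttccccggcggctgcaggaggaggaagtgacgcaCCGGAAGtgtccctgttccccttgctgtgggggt
FBXO45 (chr3:196568410-196568659, plus strand): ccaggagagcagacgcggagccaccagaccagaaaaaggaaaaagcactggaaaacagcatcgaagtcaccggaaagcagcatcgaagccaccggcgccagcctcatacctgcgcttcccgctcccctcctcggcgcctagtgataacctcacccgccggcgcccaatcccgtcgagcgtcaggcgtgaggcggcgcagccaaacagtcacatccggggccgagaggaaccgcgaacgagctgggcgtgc
FBXO8 (chr4:174283668-174283917, minus strand): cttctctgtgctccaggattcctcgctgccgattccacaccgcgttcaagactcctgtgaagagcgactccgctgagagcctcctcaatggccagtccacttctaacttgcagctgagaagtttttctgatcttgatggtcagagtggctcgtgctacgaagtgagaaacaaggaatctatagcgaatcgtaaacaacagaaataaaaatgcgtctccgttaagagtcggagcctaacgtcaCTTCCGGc
FBXO28, which fell, and FBXO8, which rose, both held the ETS core, beginning 34 and 8 bases before the start. FBXO21 and FBXO45 held no match to any motif searched.

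The table held promoters for 49 of the 65 genes. Both strands of the 250 bases were searched for 6 motifs picked with the results known: the ETS core CCGGAAG, a YY1 motif, the cyclic AMP response element TGACGTCA, the E2F forms TTTCCCGC and TTTGGCGC, and the E-box CACGTG. The ETS core was in 5 of 15 genes that fell (FBXL12, FBXO5, FBXO11, FBXO28 and FBXW2), 2 of 9 that rose (FBXO8 and FBXO46) and 3 of 25 that did not pass (FBXO15, FBXO38 and SKP1), against 8.52% of all 35116 promoter entries. A gene with several entries was counted if any of them held the motif, while the shares of all entries count each entry alone. The measures are therefore unlike, and a gene with several entries had more chances to match. Neither E2F form was found in any of the 49, FBXO5 and SKP2 among them, against 1.39% and 0.55% of all entries. The E-box was in 1 gene that fell (FBXW4), 1 that rose (FBXL5) and 2 that did not pass (FBXL19 and FBXW8), against 6.34% of entries. The cyclic AMP element was in FBXL20, which fell, and FBXO34, which did not pass, against 1.65% of entries, and the YY1 motif in FBXL19 alone, which did not pass, against 0.373%. A match says only that these letters are in the window, and its absence only that they are not.

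Receptors with roles in the cell cycle are given together, a grouping made after their values were seen. FBXO5, the inhibitor of the anaphase-promoting complex known as EMI1, read 539, 504 and 494 on the shPLEKHO1 arrays, against 651, 642 and 617 on the shNC arrays. It was 1.25-fold lower, with no overlap (-0.32 ± 0.06, adjusted p = 0.00300). Its relative FBXO43 (EMI2), known from meiosis, was dim, with 25.6, 33.5 and 30.3 on the shPLEKHO1 arrays, against 36.5, 38.3 and 48.4 on the shNC arrays. FBXO43 fell by 0.45 ± 0.13 (adjusted p = 0.0319), and the call was lost without shPLEKHO1 replicate 1 (adjusted p = 0.0783), without shPLEKHO1 replicate 3 (0.0685) or without shNC replicate 3 (0.0935). FBXO4 and FBXO31, both reported to target cyclin D1, fell. FBXO4, which also targets the telomere protein TERF1, was 1.68-fold lower, at 167, 184 and 185 on the shPLEKHO1 arrays, against 309.8, 291 and 307 on the shNC arrays (-0.75 ± 0.05, adjusted p = 3.24e-05). Only the brightest of the 3 FBXO4 probe sets fell, the others being at 0.07 and 0.02. Those others had group means between 10.1 and 11.2, below the array's background probe set, so they say little about FBXO4. The mean of all 3, which includes them, was at -0.22 (adjusted p = 0.0183). FBXO31, which acts on cyclin D1 after DNA damage, read 90.1, 105 and 91.9 on the shPLEKHO1 arrays, against 134, 128 and 138 on the shNC arrays (-0.47 ± 0.06, adjusted p = 0.000672). In both genes every shPLEKHO1 array was below every shNC array.

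FBXL12, tied to the turnover of the CDK inhibitor CDKN1C, was 1.34-fold lower, at 233, 247 and 241 on the shPLEKHO1 arrays, against 327, 323 and 318 on the shNC arrays (-0.42 ± 0.04, adjusted p = 0.000205). FBXW5, which limits the centriole protein SASS6, averaged 395 ± 12.2 with shPLEKHO1 and 496 ± 26.0 with shNC (SD, n = 3 each) and fell (-0.33 ± 0.06, adjusted p = 0.00323). FBXL7, a receptor for the mitotic kinase Aurora A, went the other way: it rose, at 163, 185 and 179 on the shPLEKHO1 arrays, against 146, 139 and 141 on the shNC arrays (0.31 ± 0.05, adjusted p = 0.00280), while its 2 dimmer probe sets did not pass and the mean of all 3 was at 0.19. FBXW7, the tumour suppressor that targets cyclin E, MYC and NOTCH1, read 87.9, 107 and 98.1 on the shPLEKHO1 arrays, against 97.6, 102 and 103 on the shNC arrays. The FBXW7 groups overlapped, and none of its 3 probe sets passed (-0.06 ± 0.07, 95% confidence interval -0.22 to 0.11).

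The receptors FBXO2, FBXO6, FBXO17, FBXO27 and FBXO44 belong to a family in which some members bind sugar chains of misfolded glycoproteins. They were grouped after their values were seen, so they are given as values. Of the 5, 3 fell and 0 rose, where 16% and 18.1% of all genes did. FBXO27 read 36.8, 25.9 and 24.0 on the shPLEKHO1 arrays, against 46.5, 72.2 and 65.7 on the shNC arrays. It was 2.09-fold lower (-1.07 ± 0.18, adjusted p = 0.00269), and replicate 1 of each group lay closest to the other group. Both of its probe sets fell, and both carry the array's suffix x, which marks probes that may also match other transcripts. FBXO17, its neighbour on chromosome 19, fell by less (365 ± 22.1 with shPLEKHO1 and 428 ± 12.5 with shNC (SD, n = 3 each), -0.23 ± 0.05, adjusted p = 0.0120). Both FBXO17 probe sets carry the suffix x as well, and the dimmer did not pass (-0.13, adjusted p = 0.113 over all probe sets). FBXO6 averaged 30.8 ± 1.88 with shPLEKHO1 and 39.1 ± 3.59 with shNC (SD, n = 3 each) and fell too (-0.34 ± 0.08, adjusted p = 0.0111). FBXO44 and FBXO2, which sit beside FBXO6 on chromosome 1, did not pass, at -0.13 ± 0.10 and 0.01 ± 0.09.

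The beta-TrCP receptors, which target beta-catenin and the inhibitor of NF-kB, rose. FBXW11 (beta-TrCP2) read 348, 380.3 and 339.6 on the shPLEKHO1 arrays, against 268, 253 and 272 on the shNC arrays. That is 1.35-fold higher, with no overlap (0.44 ± 0.05, adjusted p = 0.000374), and 3 of its 4 probe sets rose. BTRC (beta-TrCP1), an F-box gene outside the set because of its name, read 156, 163 and 150.4 on the shPLEKHO1 arrays, against 119.7, 111 and 103 on the shNC arrays and rose (0.50 ± 0.06, adjusted p = 0.000548), with all 4 probe sets up. FBXW2, a WD40 receptor for the placental factor GCM1, was 1.60-fold lower, at 214, 223 and 233 on the shPLEKHO1 arrays, against 387, 345 and 346 on the shNC arrays (-0.68 ± 0.05, adjusted p = 5.28e-05). Of its 3 probe sets only the brightest passed, the next was at -0.02, and their mean was at -0.30.

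The paralogues FBXO32 and FBXO25 went opposite ways. FBXO32 (atrogin-1), known for protein breakdown in wasting muscle, fell by 0.61 ± 0.06 (adjusted p = 0.000157) on a single probe set, with 102, 107 and 96.1 on the shPLEKHO1 arrays, against 151, 150.2 and 168 on the shNC arrays. FBXO25 was 1.42-fold higher (0.51 ± 0.08, adjusted p = 0.00157), with 137, 137 and 130.0 on the shPLEKHO1 arrays, against 102, 83.1 and 100.003 on the shNC arrays, and 3 of its 4 probe sets rose. In each gene the groups were separate. FBXL20, which degrades the synaptic protein RIMS1 in mouse neurons, read 123, 111 and 118 on the shPLEKHO1 arrays, against 182, 168 and 162 on the shNC arrays (-0.53 ± 0.06, adjusted p = 0.000396), its 2 other probe sets did not pass, and the mean of all 3 was at -0.23.

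FBXO3, which targets the receptor FBXL2, rose on every probe set. It read 282, 301 and 308 on the shPLEKHO1 arrays, against 210.4, 192 and 206 on the shNC arrays and was 1.48-fold higher (0.56 ± 0.05, adjusted p = 9.95e-05), and its 8 probe sets rose by between 0.29 and 0.77. FBXL17, a quality control receptor for BTB domain proteins, rose by 0.32 ± 0.05 (adjusted p = 0.00131), at 492, 493 and 487 on the shPLEKHO1 arrays, against 390.1, 378 and 405 on the shNC arrays. Of its 4 probe sets 2 rose, the other 2 were at -0.01 and -0.09, and their mean was at 0.20. FBXL5, whose iron-sensing domain governs the turnover of iron regulatory protein IREB2, read 974, 1081 and 1053 on the shPLEKHO1 arrays, against 855, 819 and 795 on the shNC arrays (0.32 ± 0.05, adjusted p = 0.00161), and both probe sets rose. The 3 genes had no overlap between groups.

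FBXL4, a mitochondrial protein that restrains mitophagy, read 157, 156 and 159 on the shPLEKHO1 arrays, against 138, 128 and 141 on the shNC arrays. It rose by 0.22 ± 0.05 (adjusted p = 0.00980), as did both of its probe sets. FBXO22, a receptor for the demethylase KDM4A and for BACH1, read 329, 364 and 328 on the shPLEKHO1 arrays, against 310.2, 282 and 289.8 on the shNC arrays (0.22 ± 0.05, adjusted p = 0.0123). Only the brightest of its 5 probe sets passed, and with their mean FBXO22 was at 0.06 (adjusted p = 0.449). FBXO46 rose on its single probe set (0.31 ± 0.07, adjusted p = 0.0103), at 82.6, 73.2 and 79.5 on the shPLEKHO1 arrays, against 58.0, 66.8 and 65.1 on the shNC arrays. FBXO7, a gene of inherited parkinsonism, fell little: 729 ± 10.3 with shPLEKHO1 and 821 ± 45.2 with shNC (SD, n = 3 each) (-0.17 ± 0.04, adjusted p = 0.0172). Its call was lost without shPLEKHO1 replicate 1 (adjusted p = 0.0522), without shNC replicate 1 (0.0519) or without shNC replicate 3 (0.0553), with arrays centred on their medians (0.0901) and without normalization between arrays (0.0560).

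FBXO11, a receptor for BCL6, had the smallest change among the calls (-0.14 ± 0.04, adjusted p = 0.0452), with 529, 532 and 542 on the shPLEKHO1 arrays, against 602, 582 and 581 on the shNC arrays. Of its 9 probe sets, 2 fell and the dimmest rose. That dimmest probe set averaged 11.4 with shPLEKHO1 and 7.23 with shNC, below the array's background probe set. The brightest did not pass when probe sets were adjusted together (adjusted p = 0.0596). Leaving out any 1 of the 6 arrays lost the call (adjusted p from 0.0694 to 0.126), and the mean over probe sets was at -0.03 (adjusted p = 0.652).

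FBXW9 fell by 0.34 ± 0.07 (adjusted p = 0.00569), at 83.9, 90.8 and 96.3 on the shPLEKHO1 arrays, against 122, 108 and 115 on the shNC arrays. FBXW4, the gene of mouse dactylaplasia, averaged 219 ± 8.02 with shPLEKHO1 and 268 ± 7.23 with shNC (SD, n = 3 each) and fell by 0.27 ± 0.05 (adjusted p = 0.00409). Its pseudogene FBXW4P1, with which it may share probes, did not pass (0.01 ± 0.10). A background probe set of the array, GC16, read 12.7 to 14.4, and 8 of the 65 genes had means at or below its highest value in both groups, of which 2 changed. FBXL16 read 8.23, 8.77 and 7.84 on the shPLEKHO1 arrays, against 9.77, 11.1 and 11.2 on the shNC arrays and fell (-0.34 ± 0.06, adjusted p = 0.00408). FBXL13 read 14.2, 13.7 and 14.3 on the shPLEKHO1 arrays, against 12.9, 11.9 and 10.8 on the shNC arrays and rose (0.22 ± 0.07, adjusted p = 0.0458). With a pseudocount of 16, FBXL16 was at -0.14 and FBXL13 at 0.10. These are differences between values in the range of the background, and the FBXL13 call was lost without any 1 of 5 of the 6 arrays, the exception being shNC replicate 1 (adjusted p from 0.0821 to 0.134 where lost).

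**Figure D2:**
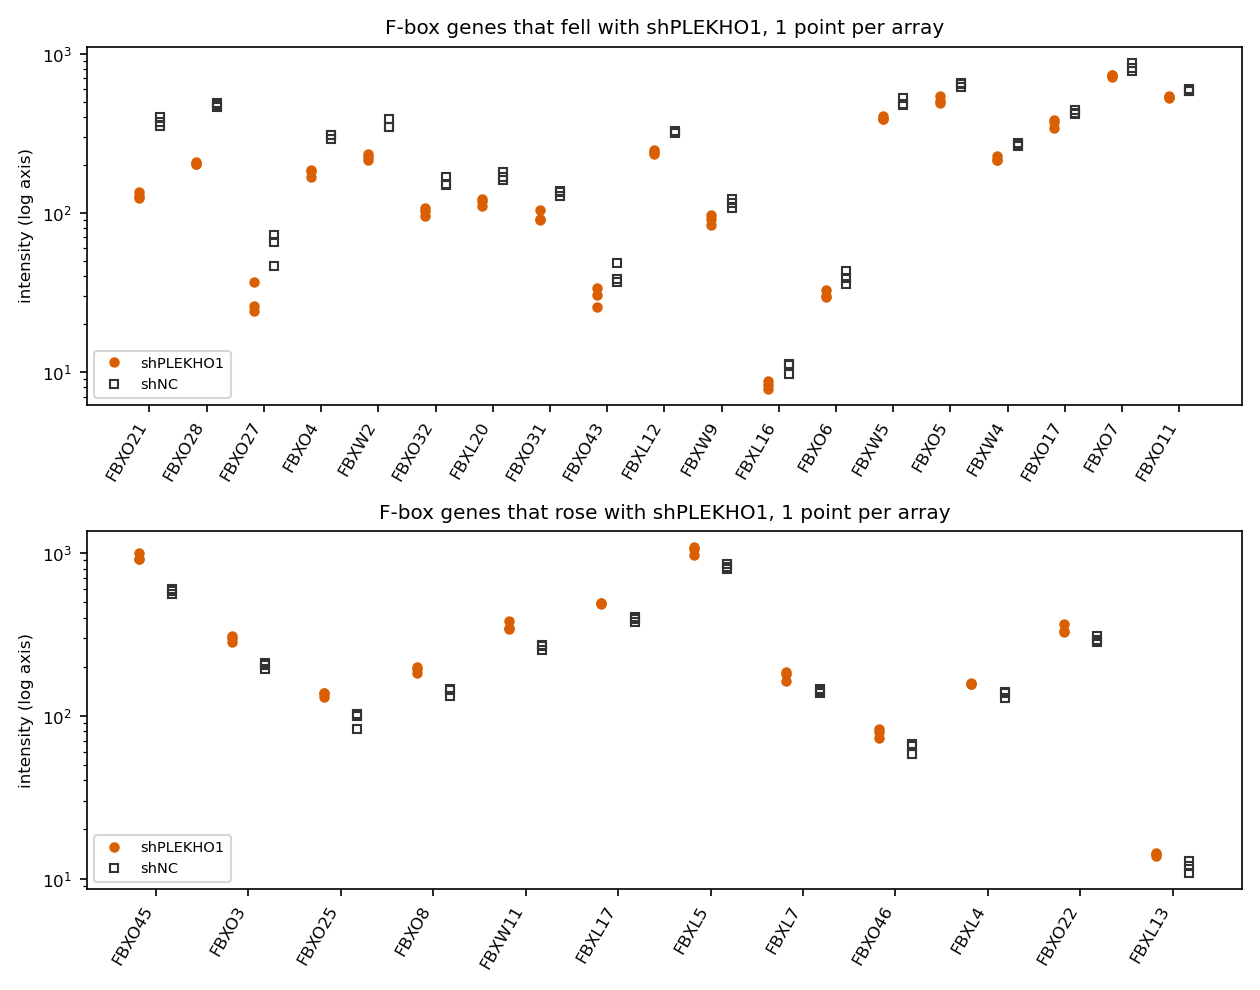
Deposited intensity (y axis, log scale) of the 19 genes that fell (upper panel) and the 12 that rose (lower panel), 1 point per array, shPLEKHO1 as filled circles left of shNC as open squares. In each of the 31 genes the shPLEKHO1 and shNC points do not overlap; FBXO21 and FBXO28 are farthest apart, and FBXL16 and FBXL13 lie near the bottom of the scale.

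Grouped by the start of the gene name, FBXO genes had 12 falls and 6 rises among 35. FBXW genes had 4 falls and 1 rise among 11, and FBXL genes 3 falls and 5 rises among 17. The FBXW genes include the pseudogene FBXW4P1 and the noncoding FBXW7-AS1, and the FBXL genes the pseudogenes FBXL9P and FBXL21P. None of these passed, and they code for no receptor, so the groups are not strictly classes of substrate-binding domain. All genes fell in 16% and rose in 18.1% of cases, and the FBXO rises (17.1%) and FBXL falls (17.6%) were near these shares. Median log2 differences were -0.09 for FBXO, -0.06 for FBXW and 0.12 for FBXL. The difference between these name groups was not tested. FBXW11 was the only FBXW gene that rose. The 34 genes that did not pass had log2 differences between -0.16 and 0.27, among them FBXL14, a receptor for the SNAI1 repressor (-0.07), FBXW8 (0.02) and FBXO38 (0.01). FBXO39 and FBXL8, at the upper end of that range, had groups that did not overlap without passing the test (adjusted p = 0.0611 and 0.0897).

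Several probe sets measured 38 of the genes, and the other 27 had 1. Of the 19 changed genes with several probe sets, 11 had further probe sets that passed in the same direction and none that passed in the other, 7 had no further probe set that passed, and FBXO11 had probe sets that passed both ways. The FBXO11 probe set that rose read below the array's background probe set. A further 12 changed genes rested on a single probe set. FBXW8 and SKP2 did not pass by their brightest probe set but had dimmer ones that fell: 2 of 4 for FBXW8, at -0.35 and -0.26. Over all 154 probe sets, 29 rose (18.8%) and 31 fell (20.1%), against 17.3% and 15.7% of the 44988 probe sets tested. In all, 60 of 154 changed, against 33.0% of probe sets tested. The numbers of rises and falls were closer by probe set than by gene, and FBXO3 alone gave 8 of the rises.

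**Figure D3:**
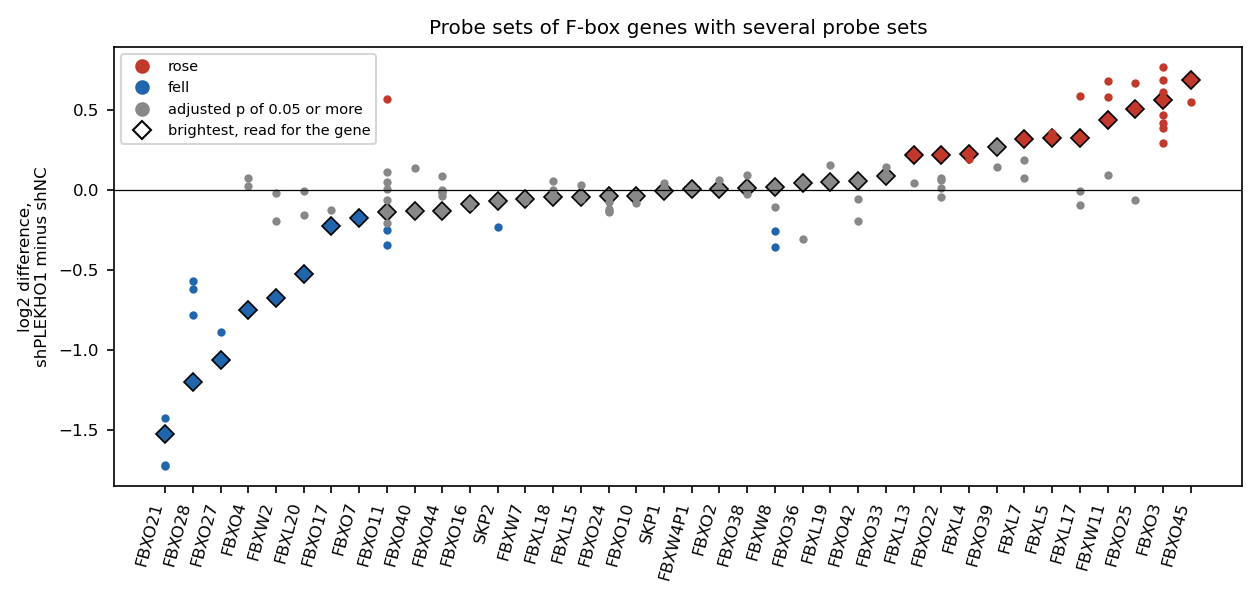
Log2 difference (y axis, shPLEKHO1 minus shNC) of every probe set of the 38 genes with several probe sets (x axis, sorted by the brightest probe set, drawn as a diamond). The 4 probe sets each of FBXO21 and FBXO28 lie below 0 and the 8 of FBXO3 above it, while the dimmer probe sets of FBXO4, FBXW2 and FBXL20 lie between -0.19 and 0.07. Those of FBXO4 read below the array's background probe set.

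The machinery that carries the receptors changed too, in lists chosen with earlier results of these data known. Of 11 measured genes of the SCF core, its ubiquitin-conjugating enzymes, cofactors and deubiquitinases, 4 rose and 4 fell (72.7% changed, against 34.1% of all genes), with a median of 0.10. With dim genes left out, 9 of 11 changed, against 50% of all genes kept. CUL1, RBX1, UBA3 and CAND1 are named for their place in the complex, with their values seen. The scaffold CUL1 read 1060.5, 1107 and 1034 on the shPLEKHO1 arrays, against 946, 855 and 854 on the shNC arrays and rose (0.26 ± 0.05, adjusted p = 0.00357). The RING protein RBX1 did not pass (0.10 ± 0.04, adjusted p = 0.129). RNF7, the RING partner chiefly of CUL5, fell to 487 with shPLEKHO1, against 821 with shNC (-0.75 ± 0.05, adjusted p = 1.51e-05), with all 4 probe sets down. UBE2G1, a conjugating enzyme of cullin ligases, was 2.03-fold lower (-1.02 ± 0.06, adjusted p = 9.45e-06), and CDC34, which extends ubiquitin chains on SCF substrates, rose (0.37 ± 0.05, adjusted p = 0.00109). ARIH1, which places the first ubiquitin, rose by its brightest probe set (0.38 ± 0.05), but another of its 3 probe sets fell (-0.85), and their mean was at -0.20 (adjusted p = 0.0229).

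Among genes of the NEDD8 cycle and the COP9 signalosome more rose than fell. Of 23 measured, 12 rose and 3 fell, with a median of 0.20; the shares were 52.2% and 13.0%, against 18.1% and 16% of all genes. With dim genes left out, 14 of 20 rose and 3 fell, against 26.9% and 23.1% of all genes kept. COPS2, a subunit of the COP9 signalosome, read 608, 638 and 620.1 on the shPLEKHO1 arrays, against 437, 389 and 394 on the shNC arrays (0.61 ± 0.05, adjusted p = 4.29e-05). Its 3 probe sets all rose, by between 0.24 and 0.61. GLMN, which binds RBX1 and blocks the ligase, was 1.51-fold higher (0.60 ± 0.05, adjusted p = 5.96e-05), and DCUN1D1, which helps to transfer NEDD8, rose as well (0.38 ± 0.05, adjusted p = 0.000950). Among COP9 subunits COPS7B alone fell (-0.55 ± 0.07, adjusted p = 0.000728). The other falls were UBA3, a subunit of the NEDD8-activating enzyme, at -0.24 ± 0.05, and the exchange factor CAND1 at -0.19 ± 0.05. F-box genes under other names were 7 measured, of which 1 rose (BTRC, 14.3%, against 18.1% of all genes) and 2 fell (28.6%, against 16%): KDM2B, a histone demethylase, at -0.79 ± 0.06 (adjusted p = 3.23e-05), and CCNF, cyclin F, at -0.47 ± 0.06 (adjusted p = 0.000585). With the mean of their probe sets, KDM2B was at -0.47 and CCNF at -0.29.

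**Figure D4:**
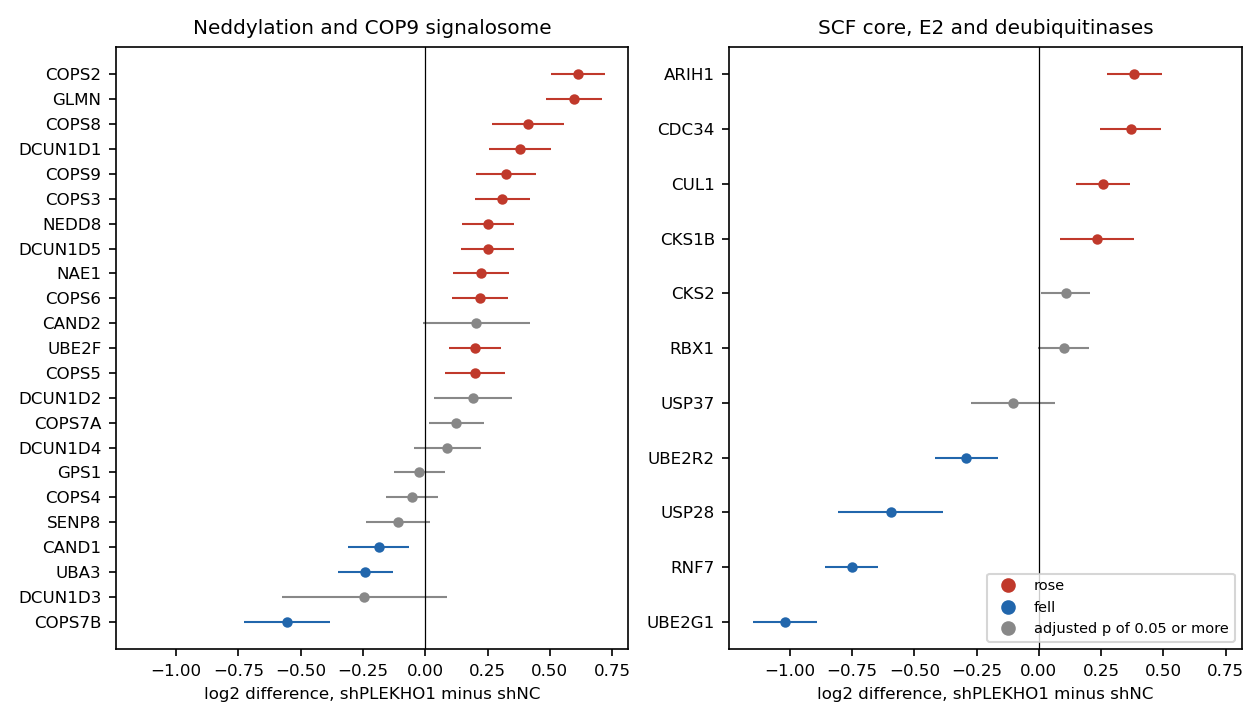
Log2 difference (x axis, shPLEKHO1 minus shNC) with 95% confidence intervals for 23 genes of neddylation and the COP9 signalosome (left panel) and 11 genes of the SCF core, its conjugating enzymes, cofactors and deubiquitinases (right panel), 3 arrays per group. In the left panel 12 genes rose and 3 fell. In the right panel 4 rose and 4 fell, with UBE2G1 lowest at -1.02 by its brightest probe set.

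Transcripts of proteins known as SCF substrates were taken as a last list. Of 41 measured, 10 rose and 15 fell (61.0% changed, against 34.1% of all genes), with a median of -0.01. With dim genes left out, 29 of 41 changed, against 50% of all genes kept. The 4 smallest p-values all belonged to falls: CCND1, cyclin D1 (2.66-fold lower, -1.41 ± 0.04), the CDK inhibitor CDKN1C (2.28-fold lower, -1.19 ± 0.06), the survival factor MCL1 (-0.76 ± 0.05) and the pocket protein RBL2 (-1.39 ± 0.09), with adjusted p of at most 2.05e-05. For MCL1, 4 of 6 probe sets fell and 1 rose, with a mean of -0.40. Of the receptor and substrate pairs measured, 3 were picked after their values were seen and are set side by side at the transcript level. Other pairs are not, among them FBXO28 with MYC, FBXL7 with AURKA, FBXL12 with CDKN1C and FBXO11 with BCL6. Whether receptors and substrates moved together over all pairs was not tested. FBXO21 was at -1.53 and its substrate EID1 at 0.59 ± 0.05, which rose. FBXO4 was at -0.75, and its substrate TERF1 at -0.52 ± 0.07, which fell. SKP2 did not pass at -0.07, and its substrate CDKN1B fell (-0.65 ± 0.05, adjusted p = 5.79e-05).

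**Figure D5:**
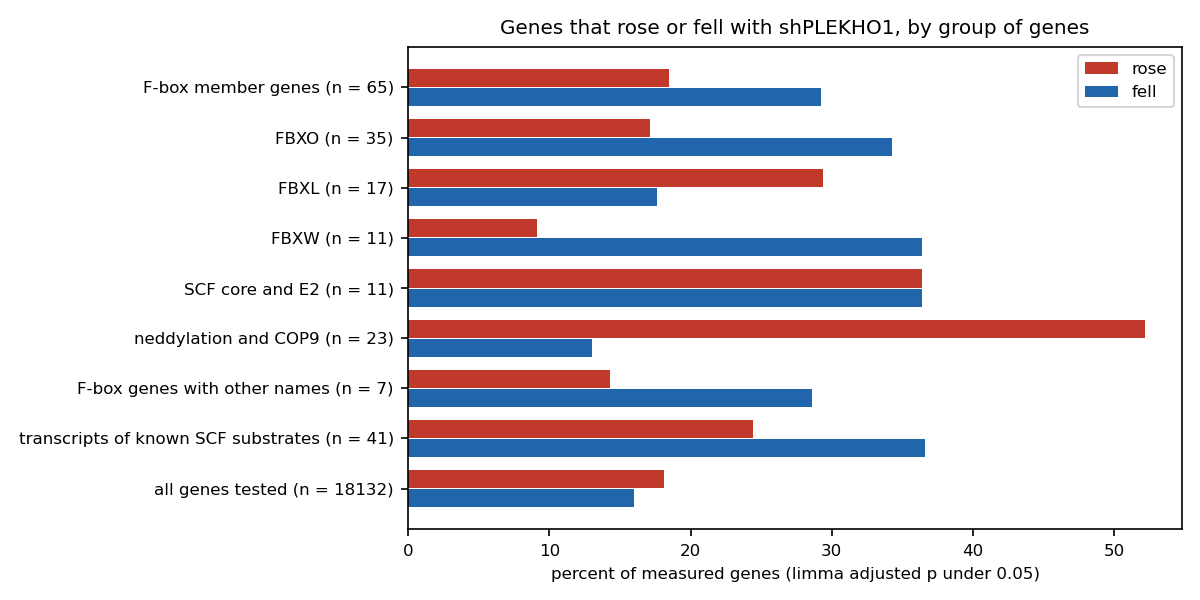
Percent of measured genes (x axis) that rose or fell with shPLEKHO1 in each group of genes (y axis, n is the number measured), with all 18132 genes at the bottom. F-box genes fell in 29.2% and rose in 18.5% of cases, and neddylation and COP9 genes rose in 52.2%, where all genes fell in 16% and rose in 18.1%.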

How the data were processed

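RNA was measured on 6 single-colour Affymetrix arrays. The authors deposited a linear intensity for every probe set on every array, from 4.33 to 19770. The submitters' processing notes name Affymetrix Expression Console. Which algorithm or version was run, and whether arrays were normalized, is not stated there or in the labels. Values became log2(intensity + 1), with a pseudocount of 1 that understates changes of dim genes, and were quantile normalized over all 49395 probe sets.

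After 102 control probe sets and all without a single gene symbol were set aside, 44988 stayed. Symbols were updated through Entrez identifiers (44961 matched, 27 kept the array's name) with RefSeq names of GRCh38.p14. For each of 18132 genes the brightest probe set was used, by mean deposited value over 6 arrays. The test was limma 3.58.1 (lmFit, then eBayes) in R 4.3.3 with group as its only term, p-values being adjusted by Benjamini-Hochberg over all genes at a threshold of 0.05. Steps were tested on simulated data. The number of arrays limits the precision.

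The members and lists were chosen with earlier results of these data known. Named were PLEKHO1, SKP1, SKP2, every changed member, well studied members, and from each other list up to 4 changed genes with the smallest p. Array values are printed for the 12 largest rises and 12 largest falls, and for some others. Some genes that the rule lists are not analysed here. Alternatives were median centring, no normalization, no pseudocount or 16, leaving out the lowest 30% of genes, the mean of probe sets, each probe set alone, a variance trend, array weights, a replicate block and leaving out each array.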

Additional observations from a re-analysis of the deposited data

How the results depend on the processing

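The count of 31 changed F-box genes lay between 28 and 31 when 1 array was left out, and no alternative moved it, the counts of rises and falls, or the counts of the 4 other lists by over 1.5 times. PLEKHO1 kept its fall in all of them. Of the 31 genes, 26 kept direction and call under each of the 16 alternatives that measured them (FBXL16 and FBXL13 are left out with the lowest 30% of genes), and 0 reversed. FBXO43, FBXO7, FBXO11, FBXL13 and FBXO22 lost the call in 1 or more, and the cause was not tested. A pseudocount of 16 lost FBXL13 (adjusted p = 0.0881), as did a variance trend with robust fitting (0.0585). Among other genes named, ARIH1 turned to -0.20 with the mean of probe sets, whose 3 probe sets disagree. Replicate numbers gave no sign of pairing: deviations of arrays with the same number correlated at -0.16, -0.16 and -0.05. These correlations cannot show that the samples were unpaired. With the replicate block, 28 F-box genes changed, 11 up and 17 down, and FBXO7, FBXO11 and FBXL13 lost the call (adjusted p = 0.0605, 0.124 and 0.0854). Choosing the brightest probe set by log2 values, added after the data were seen, lost 0 of the 31 calls. With the lowest 30% of genes left out, 6343 of 12692 genes changed, so shares of changed genes are set against 50% there and not 34.1%. Dim genes are limited by the background.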
